A study of Mus musculus with 12 samples.

Results

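A set of 10 genes that mark tissue macrophages were followed through 4 mouse fat depots: Csf1r, C1qa, C1qb, C1qc, Cd68, Mrc1, Cd163, Clec10a, Itgam and Marco. They were chosen by name, and these 10 genes are 10 of the 23420 in the count table. RNA-seq libraries came from 2 brown depots, scBAT (supraclavicular) and iBAT (interscapular), and 2 white depots, iWAT (inguinal) and eWAT (epididymal), with 3 libraries of each. All mice were untreated C57BL/6 males of 8 weeks kept at ambient temperature, and no allele or agent distinguishes the depots. Nothing in the labels ties a library to a single animal or says that replicates of a depot are separate animals, so the p-values measure the spread between these libraries, which may be technical.

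Fat holds resident macrophages that clear dead adipocytes and lipid and lie along blood vessels. They depend on signalling through the receptor Csf1r, whose ligands are Csf1 and Il34. Resident macrophages are also a main source of C1q, the recognition subunit of the complement C1 complex, and display scavenger and lectin receptors such as Mrc1 (CD206), Cd163, Clec10a and Marco. In homogenized tissue, fewer macrophages and less macrophage RNA per cell cannot be told apart.

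Libraries held 17159401 to 29262554 counts. Levels are given as CPM, the usual depth-scaled count unit, after scaling of the libraries by the trimmed mean of M-values (TMM). All 10 genes passed the filter on low counts, among 14898 tested genes, and Marco passed through its white fat libraries. The depot labels matched the brown fat gene Ucp1, which encodes the uncoupling protein of thermogenic fat and averaged 1969 CPM in scBAT and 2174 CPM in iBAT, against 22.1 CPM in iWAT and 45.6 CPM in eWAT. Libraries 1 and 3 of iWAT stood apart from every other library. The 8 B cell genes summed to 1536, 89.4 and 2131 CPM in iWAT libraries 1, 2 and 3, and no library of another depot passed 42.9 CPM. The 8 T cell genes summed to 858, 57.8 and 1346 CPM in the same libraries, against at most 17.2 CPM elsewhere. At most 1 of the 8 B cell genes and none of the T cell genes was at 0 in any library. Whether lymph node tissue was included in these libraries was not tested. For the 10 genes and the lists of other immune cells, call counts without iWAT libraries 1 and 3 are given beside those with all libraries. Those fits keep iWAT 2 as the only iWAT library. Their p-values and call counts therefore take the spread from the other depots and do not measure that within iWAT. Levels, correlations and the other lists use all libraries unless stated.

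The genes lie on 7 chromosomes. C1qb, C1qc and C1qa are neighbours on the minus strand of chromosome 4, at 136880129-136886187, 136889804-136893065 and 136895917-136898803 (mm10, GENCODE M21 gene models). RefSeq promoter windows (build GRCm38.p6, 250 bases before to 50 bases after the start) were found for 7 of the 10 genes, and Csf1r, C1qa and Clec10a had no entry. The windows were searched on both strands for GAGGAA, the core recognized by PU.1, the transcription factor encoded by Spi1 that specifies macrophages. This core or its reverse complement TTCCTC was in 28.3% of all 32851 RefSeq mouse promoter windows, and in the windows of C1qb, C1qc, Cd68, Mrc1, Itgam and Marco, with none in that of Cd163. The longer form GAGGAAGT, which contains the core, was in 3.2% of all windows and among these genes only in C1qc, as ACTTCCTC. Windows are shown for C1qb and C1qc, and for Itgam, which had the largest brown to white difference measured in every library. That of Marco, with a pattern of its own, is shown too. Capitals mark the core on either strand. The windows are chr4:136886151-136886450 (minus strand) for C1qb, chr4:136892865-136893164 (minus) for C1qc, chr7:128062390-128062689 (plus) for Itgam and chr1:120504975-120505274 (minus) for Marco.
C1qb: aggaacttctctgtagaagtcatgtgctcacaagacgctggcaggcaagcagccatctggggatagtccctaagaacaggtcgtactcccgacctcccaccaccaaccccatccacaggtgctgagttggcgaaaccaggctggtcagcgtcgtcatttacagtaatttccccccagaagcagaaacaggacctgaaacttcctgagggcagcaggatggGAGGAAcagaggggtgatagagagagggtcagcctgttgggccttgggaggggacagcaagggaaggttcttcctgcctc
C1qc: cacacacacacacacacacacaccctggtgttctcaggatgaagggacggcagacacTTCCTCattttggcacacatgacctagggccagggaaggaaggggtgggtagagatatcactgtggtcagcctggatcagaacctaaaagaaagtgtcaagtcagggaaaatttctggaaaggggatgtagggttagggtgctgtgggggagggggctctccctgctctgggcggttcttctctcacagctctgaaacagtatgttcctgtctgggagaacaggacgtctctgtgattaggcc
Itgam: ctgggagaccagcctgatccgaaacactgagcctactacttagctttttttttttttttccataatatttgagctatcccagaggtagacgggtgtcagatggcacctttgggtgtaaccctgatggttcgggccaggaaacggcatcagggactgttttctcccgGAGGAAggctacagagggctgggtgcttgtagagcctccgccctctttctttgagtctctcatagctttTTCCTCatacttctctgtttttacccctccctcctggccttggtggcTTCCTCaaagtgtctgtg
Marco: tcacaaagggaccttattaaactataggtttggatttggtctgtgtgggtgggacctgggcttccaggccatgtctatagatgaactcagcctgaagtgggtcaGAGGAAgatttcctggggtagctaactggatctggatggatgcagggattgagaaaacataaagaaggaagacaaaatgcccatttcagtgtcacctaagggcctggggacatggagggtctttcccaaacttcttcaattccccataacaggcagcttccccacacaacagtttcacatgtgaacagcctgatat
The core began 30 bases before the annotated start in C1qb and 193 bases before it in C1qc. In Itgam it began 84 and 15 bases before the start and 32 bases after it, and in Marco 146 bases before it. These matches describe the sequence and do not show binding.

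The macrophage genes were lower in brown than in white fat. By edgeR's quasi-likelihood test, with p-values adjusted over every tested gene by Benjamini-Hochberg, all 9 genes with reads in every library were called lower at an adjusted p under 0.05, where 38.1% of all tested genes were called lower and 69.4% in either direction. Marco was called too, but it passed the filter only through white fat, so it is described apart and counts for nothing here. For 8 of the 9, every brown library lay below every white library, which held for 21.9% of all tested genes. Cd163 was the exception. The median log2 difference of the 9 genes was -2.08, against -0.11 for all tested genes. Without iWAT 1 and 3 all 9 were again called lower, with log2 differences of -3.09 to -2.05, where 35.2% of all tested genes were called lower.

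Csf1r, the receptor tyrosine kinase on which tissue macrophages depend, had 50.5, 54.2 and 46.6 CPM in scBAT and 23.6, 26.9 and 32.4 CPM in iBAT, against 182, 158 and 174 CPM in iWAT and 198, 191 and 196 CPM in eWAT. The 4 depots did not overlap, with iWAT and eWAT close to each other. Brown fat held 4.90-fold less Csf1r (log2 difference -2.29 ± 0.09, SE, 6 libraries against 6; edgeR adjusted p = 2.46e-08). In the annotation Csf1r overlaps Hmgxb3 on the opposite strand, and the strand setting of the counting is not given in the sources used here, so some of its reads could belong to Hmgxb3.

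The C1q genes encode the 3 chains of C1q. C1qa had 42.3, 44.3 and 44.2 CPM in scBAT and 21.0, 22.9 and 27.1 CPM in iBAT, against 98.2, 125 and 108 CPM in iWAT and 143, 133 and 155 CPM in eWAT. The 4 depots did not overlap in C1qa, and eWAT was highest and iBAT lowest. C1qb and C1qc had nearly the same levels as C1qa in each library. The log2 differences of brown from white fat were -1.97 for C1qa, -2.07 for C1qb and -2.08 for C1qc, each with a SE of 0.08 to 0.09 (edgeR adjusted p at most 4.34e-08).

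The chains kept close to constant proportions while their levels moved. C1qa made up 33.1 to 35.8% of the reads of the 3 chains over the 12 libraries, C1qb 31.9 to 35.9% and C1qc 28.98 to 33.2%. The C1qa share was 34.9 to 35.8% in brown libraries, against 33.1 to 34.5% in white libraries. The brown depots did not overlap in the other chains. The C1qb share was 31.9, 33.0 and 33.4% in scBAT, against 35.8, 34.8 and 34.2% in iBAT. The C1qc share was 32.3, 32.1 and 31.6% in scBAT, against 28.98, 30.3 and 30.3% in iBAT.

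Cd68, a lysosomal membrane glycoprotein of phagocytes, had 8.82, 10.1 and 6.53 CPM in scBAT and 4.71, 4.84 and 5.23 CPM in iBAT, against 45.5, 45.0 and 47.6 CPM in iWAT and 38.7, 39.7 and 38.3 CPM in eWAT. It was the only gene besides Marco whose highest depot was iWAT. Brown fat held 6.54-fold less Cd68 (log2 difference -2.71 ± 0.10, SE; edgeR adjusted p = 2.56e-08).

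Itgam encodes the integrin alpha M chain (CD11b), found on macrophages, monocytes and neutrophils. It had 7.89, 8.18 and 7.04 CPM in scBAT and 4.03, 4.71 and 4.13 CPM in iBAT, against 48.1, 42.7 and 45.3 CPM in iWAT and 49.8, 56.6 and 65.3 CPM in eWAT. All brown libraries lay far below all white ones. Itgam had the largest log2 difference of the 9 genes with reads in every library, -3.15 ± 0.09 (SE), or 8.85-fold lower in brown fat (edgeR adjusted p = 1.48e-08). A gene model on the same strand, Gm49368, overlaps Itgam and has no row of its own in the table.

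The endocytic receptors varied more between libraries. Mrc1, the macrophage mannose receptor, had 44.4, 49.5 and 42.6 CPM in scBAT and 21.8, 23.1 and 26.2 CPM in iBAT, against 102, 163 and 65.0 CPM in iWAT and 142, 166 and 151 CPM in eWAT. Brown and white libraries did not overlap, but iWAT spanned 2.51-fold. Its log2 difference of brown from white fat was -1.98 ± 0.19 (SE; edgeR adjusted p = 5.21e-06). The microRNA gene Mir511 lies within Mrc1 and has its own row.

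Cd163, the scavenger receptor for haptoglobin-bound haemoglobin, had 45.0, 53.5 and 46.3 CPM in scBAT and 23.0, 21.6 and 27.5 CPM in iBAT, against 67.3, 160 and 25.5 CPM in iWAT and 132, 126 and 147 CPM in eWAT. Library 3 of iWAT lay within the brown range. The log2 difference of brown from white fat was -1.65 ± 0.34 (SE; edgeR adjusted p = 0.00132).

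Clec10a, a C-type lectin that binds galactose and N-acetylgalactosamine, had 15.8, 15.5 and 16.1 CPM in scBAT and 4.40, 5.35 and 6.27 CPM in iBAT, against 47.9, 78.5 and 38.7 CPM in iWAT and 60.8, 57.9 and 63.7 CPM in eWAT. The scBAT libraries stood well above iBAT and below all white libraries. Brown fat held 6.29-fold less Clec10a (log2 difference -2.65 ± 0.17, SE; edgeR adjusted p = 3.48e-07). Mgl2, a close paralogue of Clec10a on the same chromosome, averaged 21.9 CPM in scBAT and 13.02 CPM in iBAT, against 35.9 CPM in iWAT and 64.5 CPM in eWAT. How reads shared by the pair were treated is not given in the sources used here, so both values are uncertain.

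**Figure D1:**
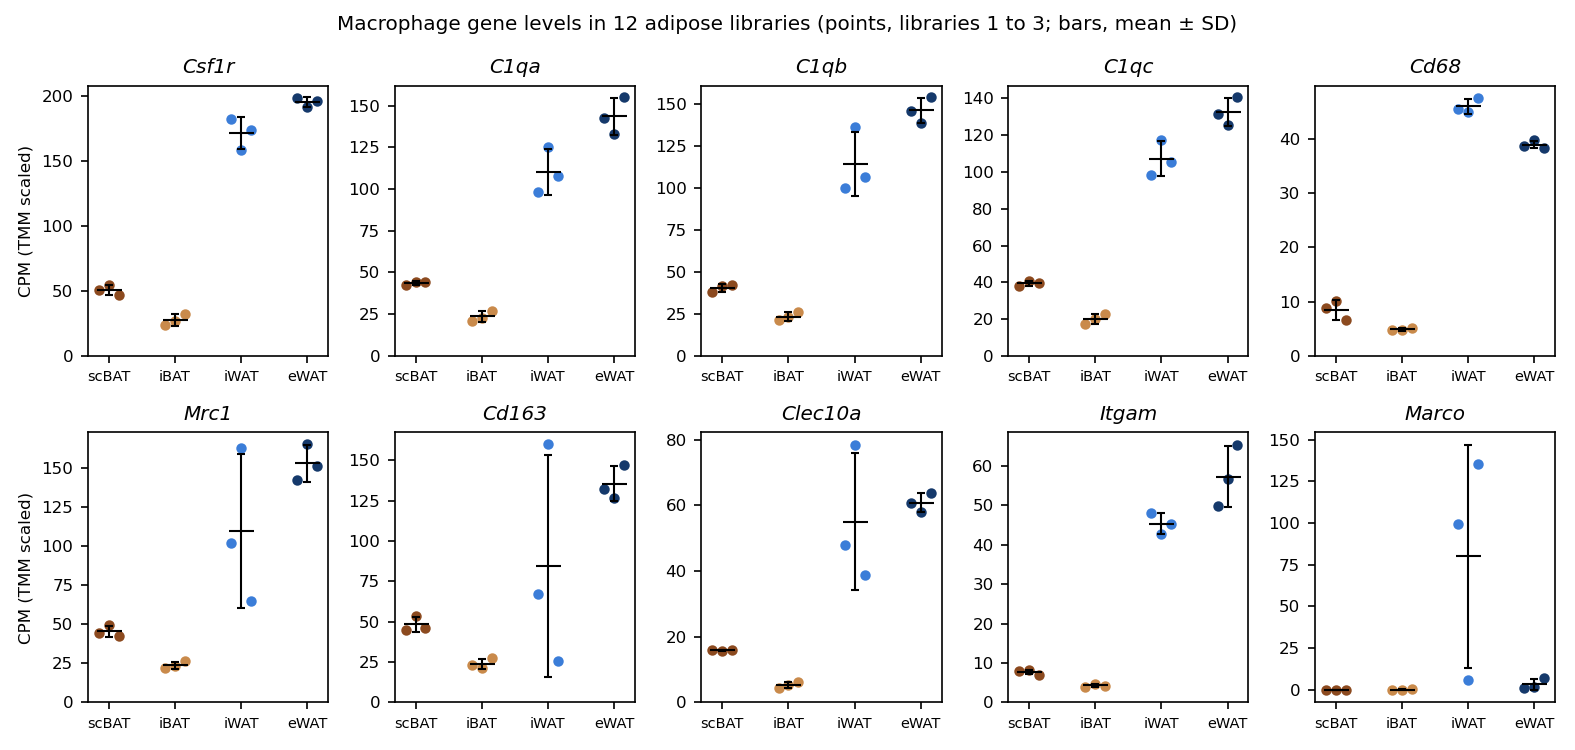
Level of each of the 10 macrophage genes (y axis, TMM-scaled CPM) in scBAT, iBAT, iWAT and eWAT (x axis); points are libraries 1 to 3 and bars are the mean ± SD. For Csf1r the brown libraries sit between 23.6 and 54.2 CPM, below all white libraries at 158 to 198 CPM, and for Cd163, Mrc1, Clec10a and Marco the iWAT libraries spread far apart.

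Per kilobase of exon, the C1q chains had the 3 highest means of the set in every depot. In single libraries Marco passed C1qc in iWAT 1 (51.6 against 51.0 CPM per kb) and iWAT 3 (70.3 against 54.7). C1qa averaged 41.9 CPM per kb in scBAT and 22.8 in iBAT, against 106 in iWAT and 138 in eWAT. Csf1r averaged 8.73 CPM per kb in scBAT and 4.79 in iBAT, against 29.7 in iWAT and 33.8 in eWAT. Itgam was the lowest after Marco in both brown depots, with 1.53 CPM per kb in scBAT and 0.855 in iBAT, against 9.02 in iWAT and 11.4 in eWAT. These per-length levels use the M21 exon lengths, since the annotation behind the counts is not given in the sources used here.

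For 8 of the 10 genes the depot means ran in 1 order, eWAT highest, then iWAT, scBAT and iBAT. Cd68 had iWAT above eWAT, and Marco ran iWAT, eWAT, iBAT, scBAT. Each brown depot was then compared with each white one. Marco is again left out of the counts. Set against iWAT, scBAT had 8 of 9 genes lower (33.5% of all tested genes lower) and iBAT had 9 of 9 (35.2%). Set against eWAT, scBAT had 9 of 9 lower (25.8%) and iBAT had 9 of 9 (27.5%). These comparisons share libraries. Without iWAT 1 and 3, the log2 differences of the 9 genes from the remaining iWAT library were -2.47 to -1.52 in scBAT and -3.88 to -2.40 in iBAT. Those from eWAT were -2.87 to -1.47 in scBAT and -3.71 to -2.47 in iBAT. With all libraries, the gene not called was Cd163 between scBAT and iWAT, with a log2 difference of -0.80 ± 0.47 (SE; edgeR adjusted p = 0.159). That value was 0.057 without iWAT library 2 and -1.73 without iWAT 1 and 3. The latter fit keeps 1 iWAT library and cannot measure the spread within iWAT. Against eWAT, the call of Cd163 in scBAT was lost without any single scBAT library, eWAT 1 or eWAT 3 (edgeR adjusted p up to 0.0719). The call of Marco in iBAT (edgeR adjusted p = 0.0493) was lost in 9 of 12 single-library omissions, and that of Marco in scBAT in 5 of 12. Itgam between iBAT and eWAT had the widest gap of the 9 genes with reads in every library, 13.3-fold, with means of 4.29 CPM in iBAT and 57.3 CPM in eWAT (log2 difference -3.74 ± 0.14, SE; edgeR adjusted p = 1.29e-07).

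**Figure D2:**
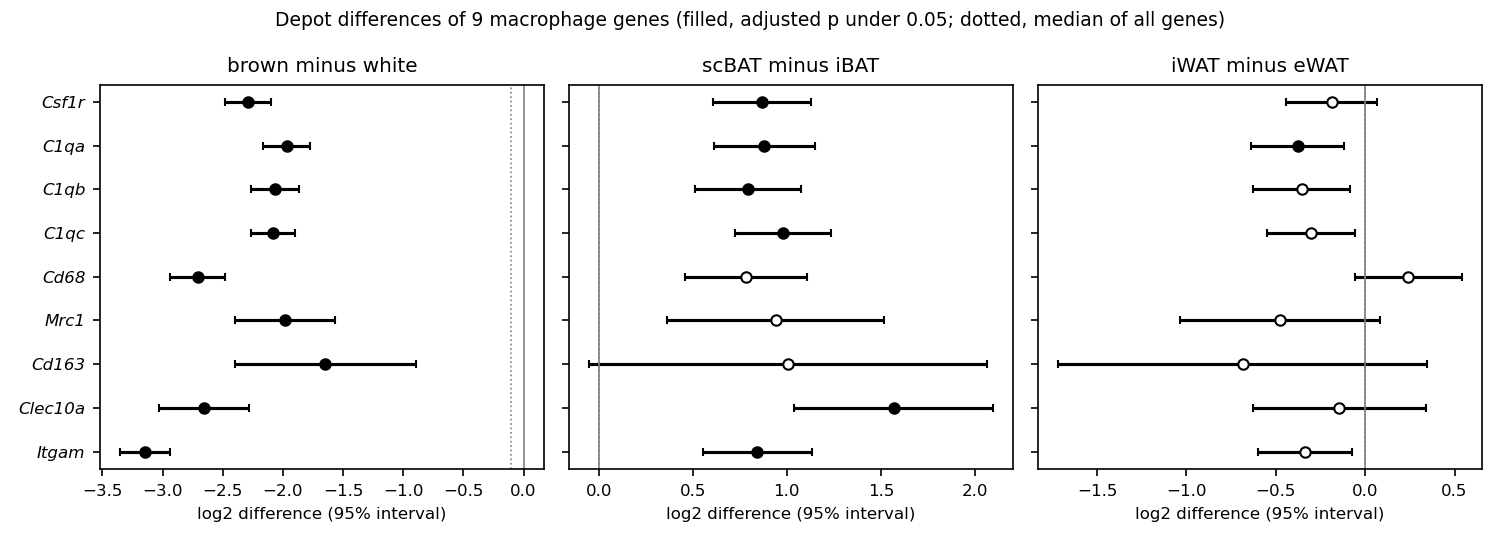
Log2 differences (x axis) of 9 macrophage genes (rows) with 95% intervals, for brown minus white, scBAT minus iBAT and iWAT minus eWAT; filled points have an edgeR adjusted p under 0.05 and the dotted line is the median of all tested genes. All 9 lie below 0 in brown minus white and all 9 lie above 0 in scBAT minus iBAT, where 6 are filled.

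Within brown fat, 9 of the 10 genes were higher in scBAT than in iBAT in every library, which held for 10% of all tested genes. Marco, near 0 in both, was the other. The call count was 6 of 10 (Csf1r, C1qa, C1qb, C1qc, Clec10a and Itgam), where 0.235% of all tested genes were called higher and 0.329% in either direction. Under limma-voom 3 of the 10 were called, and with a replicate block in edgeR 2 were. Clec10a had the largest difference, with means of 15.8 ± 0.298 CPM in scBAT and 5.34 ± 0.933 CPM in iBAT (SD, n = 3 each). Its log2 difference was 1.57 ± 0.24 (SE), or 2.96-fold (edgeR adjusted p = 0.0234). The call held without any single iWAT library and was lost without any other single library, with an edgeR adjusted p up to 0.182 and a log2 difference of 1.45 to 1.70. The other 5 called genes differed by 0.79 to 0.98 on the log2 scale, from C1qb (edgeR adjusted p = 0.0310) to C1qc (edgeR adjusted p = 0.00609). Cd68 (0.78, edgeR adjusted p = 0.0598), Mrc1 (0.94, adjusted p = 0.314) and Cd163 (1.01, adjusted p = 0.919) had differences of like size that did not pass.

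The number of calls between the brown depots changed with the libraries in the fit. With iWAT libraries 1 and 3 left out of the edgeR fit, 9 of the 10 genes were called, where 1.87% of all tested genes were. With the 6 brown libraries alone, 8 were called, where 1.14% of all tested genes were. Leaving out 1 library at a time gave 0 to 8 calls. The count was 0 without iBAT 2, where 8 of 10 genes had an unadjusted p under 0.05. It was 1 without scBAT 1, scBAT 2 or iBAT 1, and 3 without iBAT 3 or eWAT 2, and the difference stayed positive in each of these fits for the 9 genes. Values of 2 skeletal muscle genes, Acta1 and Myh1, also differed between the brown depots. Acta1 had 846, 322 and 286 CPM in scBAT, against 71.7, 105 and 318 CPM in iBAT. Myh1 had 304, 114 and 83.8 CPM in scBAT, against 18.6, 22.2 and 38.3 CPM in iBAT. The depots overlapped in Acta1 and not in Myh1, neither gene was called between them, and their part in the macrophage gene differences was not tested.

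Between the white depots few of the genes were called. C1qa was lower in iWAT, with means of 110 ± 13.8 CPM in iWAT and 143 ± 11.1 CPM in eWAT (SD, n = 3 each; log2 difference -0.38 ± 0.12, SE; edgeR adjusted p = 0.0378). Marco was higher in iWAT (edgeR adjusted p = 0.0259). That makes 2 of 10 called, 1 of them Marco, where 28.7% of all tested genes were called in either direction, a share not above the background. The C1qa call held in 3 of 12 single-library omissions (edgeR adjusted p up to 0.141). Csf1r, with a log2 difference of -0.19 (95% interval -0.44 to 0.07; edgeR adjusted p = 0.216), and Cd68, with 0.24 (-0.06 to 0.54; edgeR adjusted p = 0.179), were not called.

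For Cd163, Mrc1, Clec10a and Marco the iWAT libraries lay far apart. Cd163 was 6.26-fold higher in iWAT library 2 than in library 3, Mrc1 was 2.51-fold higher and Clec10a was 2.03-fold higher. Marco went the other way, 23.3-fold higher in library 3 than in library 2, beside the lymphocyte receptor genes Cd79a (20.8-fold) and Cd3e (20.0-fold). Csf1r, Cd68 and Itgam were nearly even over the same pair of libraries, at 174 and 158 CPM, 47.6 and 45.0 CPM, and 45.3 and 42.7 CPM in library 3 and library 2. The part of the lymphocyte-rich libraries in the Cd163, Mrc1, Clec10a and Marco values was not tested.

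Without iWAT 1 and 3, edgeR called 0 of the 10 genes between the white depots, where 5.80% of all tested genes were called and 2 of the 10 had an unadjusted p under 0.05. The log2 differences of Cd163, Mrc1 and Clec10a then turned to 0.26, 0.11 and 0.39. Without iWAT 2 alone, which keeps only the lymphocyte-rich iWAT libraries, 7 genes were called, 6 lower and 1 higher in iWAT. No share of all tested genes is given for that fit, so its 7 calls cannot be set against a background. The count was 0 without iWAT 1, iWAT 3, eWAT 1 or eWAT 2, where 3 to 5 genes had an unadjusted p under 0.05. It was 1 without scBAT 1, scBAT 2, scBAT 3, iBAT 2 or eWAT 3.

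**Figure D3:**
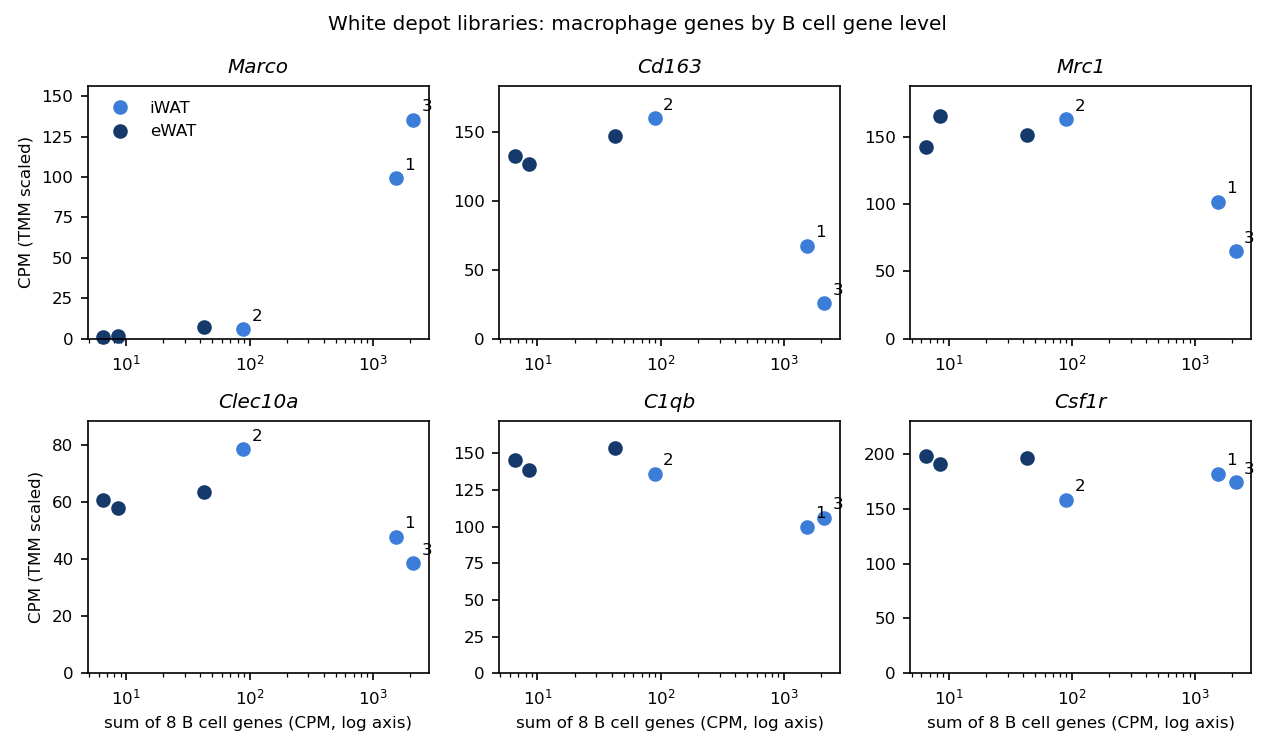
Levels of Marco, Cd163, Mrc1, Clec10a, C1qb and Csf1r (y axes, CPM) in the 3 iWAT (numbered) and 3 eWAT libraries, against the summed level of 8 B cell genes (x axis, CPM, log scale). The iWAT libraries with 1536 and 2131 CPM of B cell genes hold 99.3 and 135 CPM of Marco, while Csf1r lies between 158 and 198 CPM throughout.

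Marco, a scavenger receptor with a collagen-like stalk that binds bacteria and is known from spleen, lymph node and lung macrophages, had a pattern unlike the others. It had no read in any of the 3 scBAT libraries. In iBAT it had 0 CPM in libraries 1 and 2 and 0.323 CPM in library 3. White libraries had 99.3, 5.81 and 135 CPM in iWAT and 0.887, 1.63 and 7.24 CPM in eWAT. White fat separated from brown fat, and iWAT 2 lay within the eWAT range. Brown fat had 5 Marco counts in all and white fat 7366, a 859-fold lower scaled level in brown fat (95% interval 368 to 2646, counting error only). Against the limit that a count of 0 allows (3 counts over the depot's libraries), Marco was at least 1437-fold lower in scBAT than in iWAT and at least 57.7-fold lower in scBAT than in eWAT. It was 24.9-fold higher in iWAT than in eWAT in summed counts (22.2 to 28.1, counting error only). That interval does not cover the spread between iWAT libraries, and the edgeR call was lost without iWAT 1, iWAT 3, eWAT 1 or eWAT 2 (adjusted p up to 0.0861) and without iWAT 1 and 3 together (adjusted p = 0.808).

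**Figure D4:**
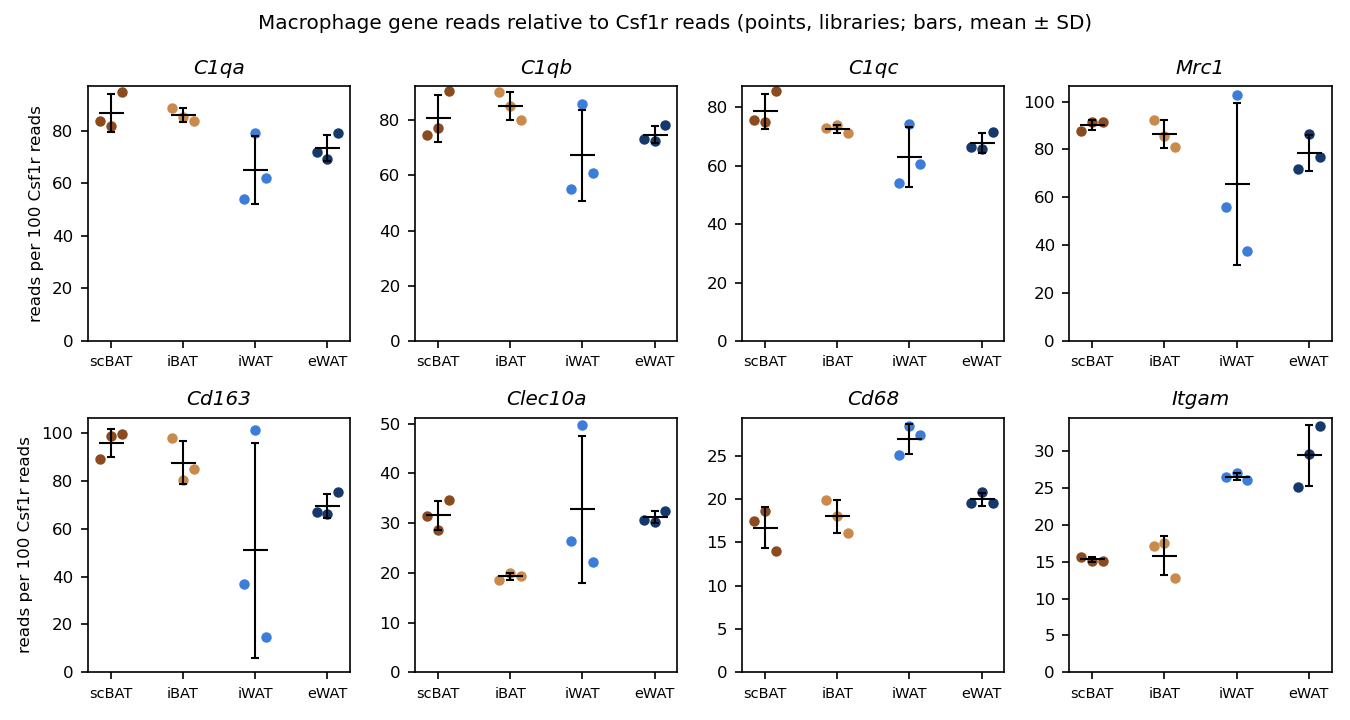
Reads of 8 macrophage genes per 100 Csf1r reads (y axes) in the 3 libraries of each depot (points; bars, mean ± SD). Itgam lies at 12.7 to 17.5 in all brown libraries and at 25.1 to 33.3 in all white libraries, and Clec10a is lower in iBAT than in the other depots.

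The genes were next set against Csf1r in the same library, to ask which of them moved in other proportion than the receptor. Values are reads per 100 Csf1r reads, and every ratio shares the Csf1r value of its library. Itgam had 15.6, 15.1 and 15.1 in scBAT and 17.1, 17.5 and 12.7 in iBAT, against 26.4, 27.0 and 26.0 in iWAT and 25.1, 29.6 and 33.3 in eWAT. Brown and white libraries did not overlap. The log2 ratio was lower in brown fat by -0.83 ± 0.12 (SE; limma adjusted p = 2.01e-05). Cd68 averaged 16.7 ± 2.38 in scBAT and 18.0 ± 1.91 in iBAT, against 26.9 ± 1.74 in iWAT and 20.0 ± 0.705 in eWAT (SD, n = 3 each), and iBAT 1 lay within the eWAT range. Its log2 ratio was also lower in brown fat, by -0.41 ± 0.12 (SE; limma adjusted p = 0.00496).

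C1qa went the other way, with 86.8 ± 7.14 in scBAT and 85.9 ± 2.66 in iBAT, against 65.0 ± 12.9 in iWAT and 73.5 ± 4.95 in eWAT (SD, n = 3 each). Its log2 ratio was higher in brown fat by 0.33 ± 0.11 (SE; limma adjusted p = 0.0122), but was 0.18 without iWAT 1 and 3. With Cd163 higher (0.83 ± 0.33, SE; limma adjusted p = 0.0320), 4 of the 8 ratios other than that of Marco were called, 2 lower and 2 higher. Without iWAT 1 and 3 no ratio was called higher. Of all tested genes, 89.3% were called against Csf1r, 2.54% lower and 86.8% higher. The Cd163 ratio was 0.13 without iWAT 1 and 3. Its call was lost without scBAT 2, scBAT 3, iBAT 1, iBAT 3, eWAT 1 or eWAT 2 (limma adjusted p up to 0.0693). The Clec10a ratio was -0.32 with all libraries (limma adjusted p = 0.0921) and -0.66 without iWAT 1 and 3. Without iWAT 2 alone, 8 of the 9 ratios were called, with no share of all tested genes to set beside them.

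Between the brown depots, 1 of the 9 ratios was called, that of Clec10a, where 73.9% of all tested genes were called in either direction and 0.725% higher. Clec10a had 31.4, 28.6 and 34.6 reads per 100 Csf1r reads in scBAT, against 18.7, 19.9 and 19.3 in iBAT. The groups did not overlap, and each iBAT library also lay below every white library. The log2 ratio was higher in scBAT by 0.69 ± 0.24 (SE; limma adjusted p = 0.0208). That call was lost without scBAT 3 and without iBAT 1 (limma adjusted p up to 0.0655). The ratios of C1qa (0.01, 95% interval -0.33 to 0.35) and Itgam (-0.04, -0.42 to 0.33) did not pass. Between the white depots only the Marco ratio was called (4.41 ± 1.02, SE; limma adjusted p = 0.0121), where 26.9% of all tested genes were. It was not called without iWAT 1, iWAT 3 or eWAT 1.

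Over the 12 libraries, the genes whose log2 CPM most resembled that of Csf1r among 11135 genes were the lysosomal protease gene Ctsc (Pearson r = 0.995), C1qc (0.993), Lacc1 (0.992), Itgam (0.992) and the inhibitory Fc receptor gene Fcgr2b (0.989). For Clec10a they were C1qc (0.989), C1qa (0.987), the complement gene C4b (0.987), C1qb (0.985) and Ifi204 (0.984). For Marco, among 14305 genes, they were Dlgap5 (0.985), Serpina1b (0.984), Rev3l (0.984), Trim36 (0.981) and Gm13157 (0.981). Within the set, the median correlation of a gene with the others was 0.987 for Csf1r, 0.816 for Cd163 and 0.731 for Marco. These correlations describe 12 libraries that share depot and depth, so a brown to white gap alone gives high values.

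Many partner genes were lower in brown fat as well, where 38.1% of all tested genes were called lower. Of the 2 ligands of Csf1r, Csf1 averaged 25.8 CPM in scBAT and 19.8 CPM in iBAT, against 71.2 CPM in iWAT and 88.7 CPM in eWAT (log2 difference of brown from white -1.81; edgeR adjusted p = 1.68e-07). Il34 averaged 12.96 CPM in scBAT and 10.3 CPM in iBAT, against 21.5 CPM in iWAT and 36.2 CPM in eWAT (-1.27; edgeR adjusted p = 0.000602). Spi1, listed under its older symbol Sfpi1, averaged 4.90 CPM in scBAT and 2.77 CPM in iBAT, against 45.2, 19.1 and 60.8 CPM in the iWAT libraries and 17.9 CPM in eWAT (-2.89; edgeR adjusted p = 3.94e-06, and -2.31 without iWAT 1 and 3). Of the 8 ligand and transcription factor genes, 5 were lower in brown fat and 1, Cebpa, which adipocytes also express, was higher (0.56; edgeR adjusted p = 0.0350).

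Of the 6 other classical complement genes, 5 were lower in brown fat, where 38.1% of all tested genes were called lower. C1ra and C1s1, the proteases that join C1q in the C1 complex, had log2 differences of -2.78 (edgeR adjusted p = 6.57e-08) and -2.48 (edgeR adjusted p = 1.79e-07). Serping1, the inhibitor of those proteases, had -2.19 (edgeR adjusted p = 7.38e-08). All 5 integrin partner genes were lower, with Itgb2, the beta chain that pairs with Itgam, at -3.17 (edgeR adjusted p = 8.52e-06, and -2.36 without iWAT 1 and 3). Between the white depots 4 of these 5 were higher in iWAT with all libraries, where 28.7% of all tested genes were called in either direction. Itgb2 had 170, 51.0 and 242 CPM in iWAT libraries 1, 2 and 3, against 48.7, 48.9 and 56.3 CPM in eWAT. Its iWAT library 2 thus lay within the eWAT range, and only the lymphocyte-rich libraries 1 and 3 lay above it. Itgam was not called between the white depots. Of the 12 scavenger and lectin relatives, 9 were lower, among them Colec12 (-2.58; edgeR adjusted p = 1.05e-08), and Cd36, Lamp1 and Lamp2 were not called.

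Most genes of further macrophage lists were lower in brown fat, where 38.1% of all tested genes were called lower. Of 12 macrophage identity genes, 11 were lower in brown fat with all libraries, and Cx3cr1 was not called. Against eWAT alone the log2 difference of Cx3cr1 was positive, 0.64 in scBAT and 0.35 in iBAT, and neither was called. Its log2 difference between iWAT and eWAT was 2.05, with the lymphocyte-rich iWAT libraries included. Adgre1, which encodes F4/80 and is listed as Emr1, averaged 17.6 CPM in scBAT and 11.2 CPM in iBAT, against 43.7 CPM in iWAT and 56.4 CPM in eWAT (-1.82; edgeR adjusted p = 3.77e-06). All 13 resident perivascular genes and all 6 lymphoid tissue macrophage genes were lower, as were 8 of the 9 lipid-associated macrophage genes, while Lipa was higher (0.54; edgeR adjusted p = 0.000123). Genes of other immune cells were lower too with all libraries, namely 6 of 6 monocyte, 6 of 7 neutrophil, 6 of 7 dendritic cell, 6 of 7 mast cell and eosinophil, 8 of 8 B cell, 8 of 8 T cell and 5 of 5 pan-leukocyte genes. Some lists lay near 0 in brown fat. The median gene had 0.214 to 0.581 CPM in iBAT libraries for the lymphoid tissue list. In scBAT libraries it had 0.222 to 0.280 CPM for the neutrophil list and 0.539 to 0.870 CPM for the B cell list. Genes that low may, like Marco, have passed the filter only through white fat. The counts of lower calls in such lists can therefore be partly set by the filter. Without iWAT 1 and 3 the counts were 5 of 6 monocyte, 4 of 6 neutrophil, 6 of 7 dendritic cell, 5 of 7 mast cell and eosinophil, 8 of 8 B cell, 8 of 8 T cell and 5 of 5 pan-leukocyte genes. Against eWAT alone the lists differed, where 25.8% of all tested genes were called lower in scBAT and 27.5% in iBAT. Of the pan-leukocyte genes 4 of 5 were lower in scBAT and 5 of 5 in iBAT. Of the mast cell and eosinophil genes 4 of 7 were lower in each. In both scBAT and iBAT edgeR called 0 of 8 B cell and 0 of 8 T cell genes lower, none of them at an unadjusted p under 0.05, while DESeq2 called 1 B cell gene lower in scBAT. Of the neutrophil genes 1 of 7 was lower in each brown depot. Of the monocyte genes 2 of 6 were lower in scBAT and 3 of 6 in iBAT, and of the dendritic cell genes 1 of 7 in scBAT and 2 of 7 in iBAT. The pan-leukocyte genes summed to 62.5 to 73.8 CPM in scBAT and 52.1 to 60.3 CPM in iBAT, against 322 to 2866 CPM in iWAT and 246 to 274 CPM in eWAT. The part of other leukocytes in the Itgam and other macrophage gene values was not tested.

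Over all these lists, 106 of 118 genes were called lower in brown fat, where 38.1% of all tested genes were. The 106 include genes near 0 in brown fat, whose lower calls the filter can partly set. The 4 called higher were Cebpa, Lipa, Zbtb46 and Kit, and 69.4% of all tested genes were called in either direction. Between the brown depots, edgeR called 1 of the 118, Siglec1, where it called 0.329% of all tested genes in either direction. Siglec1, a sialic acid binding receptor of macrophages, had means of 8.99 ± 0.503 CPM in scBAT and 3.97 ± 0.243 CPM in iBAT (SD, n = 3 each; log2 difference 1.18; edgeR adjusted p = 0.0327). An unadjusted p under 0.05 was reached by 32 of the 118 genes, all higher in scBAT, where 4.64% of all tested genes were higher by that measure. DESeq2 called 10, all higher in scBAT, where it called 1.22% of all tested genes higher. The median log2 difference between the brown depots was 1.30 for the 13 resident perivascular genes, and 0.87 for the 10 macrophage genes. Of those 13, edgeR called 0, 10 had an unadjusted p under 0.05 and DESeq2 called 4 higher in scBAT.

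**Figure D5:**
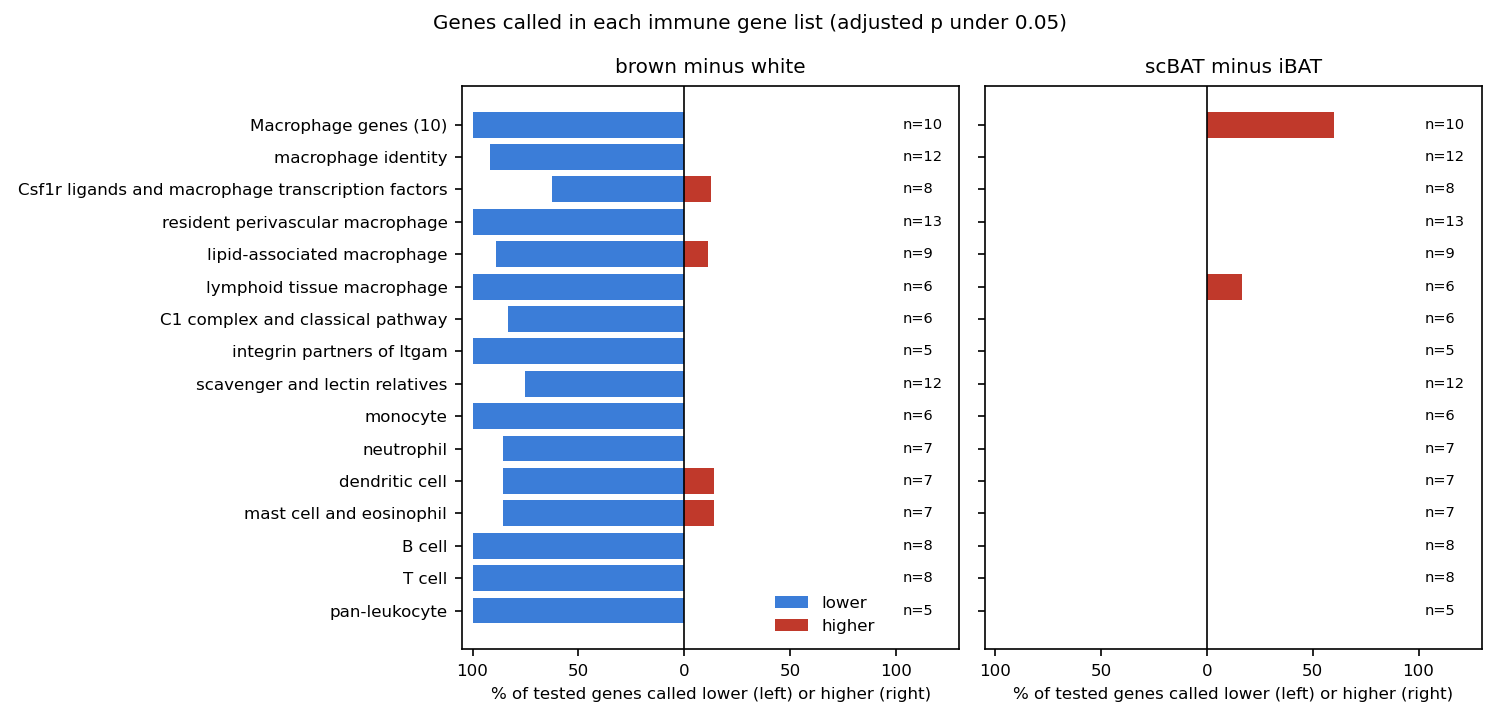
Share of each gene list called lower (left) or higher (right) at an edgeR adjusted p under 0.05 (x axis, % of tested genes), for brown minus white and scBAT minus iBAT; n is the number of tested genes. Most of every list is lower in brown fat, genes near 0 there included, where 38.1% of all tested genes are. Between the brown depots the 10 macrophage genes have 6 calls and the other lists together have 1, where 0.329% of all tested genes are called. The resident perivascular genes have the larger median difference there (1.30 against 0.87).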

How the data were processed

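Total RNA, purified with a kit for fatty and fibrous tissue, was made into TruSeq RNA libraries, per the labels. The deposited file holds the authors' raw count per gene symbol and library, with no normalization. The submitters' processing notes list build mm10, the aligner STAR 2.4.2a, the counter HTSeq 0.6.1p1, and bcl2fastq 1.8.3, edgeR and Picard 1.119. Annotation and strand setting are not given in the sources used here.

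Genes were filtered with filterByExpr on depot, which kept 14898 of 23420 genes and at least 99.7% of counts. All 12 libraries entered 1 fit in edgeR 4.0.16 (R 4.3.3) with a mean per depot, TMM scaling, robust dispersions and the quasi-likelihood F test, leaving 8 residual degrees of freedom. Standard errors and 95% intervals were derived from the F statistic. Brown minus white contrasts the mean of the brown depots with that of the white depots. Ratios to Csf1r were tested in limma 3.58.1 on log2 CPM (prior count 2). Adjusted p-values are Benjamini-Hochberg over all tested genes. Fits were tested on simulated data.

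All 10 genes are reported in every contrast. From each list come the counts of calls, up to 3 genes with the smallest adjusted p, genes called against most of their list and a fixed set of partners. The macrophage genes and lists were chosen with earlier results of these data known. Lists hold no row for Ly6g. Each pair of replicates differed by more than sampling noise (chi-square per degree of freedom at least 6.86). Alternatives were other scalings, no filter, DESeq2 1.42.0, limma-voom, a replicate block, compared depots only, other ratio settings and each library left out. Leaving out both iWAT 1 and 3, also for the lists, was chosen after seeing the data and keeps 1 iWAT library. Counting intervals cover counting error only.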

Additional observations from a re-analysis of the deposited data

How the results depend on the processing

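Brown minus white calls were stable for the 9 genes with reads in every library. Each was called lower under every scaling, filter and single-library omission, and under limma-voom. Counts for the other comparisons below include Marco. Marco passed the filter only through white fat and lends no support here, and it was called in these fits except under limma-voom (adjusted p = 0.0502). Its p had a range of 4.35e-10 to 0.0502 over 20 alternatives. Median shifts of all genes were -0.11 with TMM, -0.09 with DESeq2 size factors and -0.17 with upper quartile scaling, far smaller than the differences reported for these genes.

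Other counts moved. For scBAT minus iBAT (6 calls), limma-voom gave 3, and leaving out 1 library gave 0 to 8. For iWAT minus eWAT (2 calls), upper quartile scaling gave 5, the DESeq2 Wald test 5, the libraries of the compared depots only 0 (3 genes at an unadjusted p under 0.05 in edgeR), omission of iWAT 1 and 3 gave 0, and leaving out 1 library gave 0 to 7. For brown minus white ratios to Csf1r (5 calls, 1 of them Marco), Cd68 in place of Csf1r gave 7 and leaving out 1 library 4 to 8. For iWAT minus eWAT ratios (1 call), Cd68 in its place gave 5, omission of iWAT 1 and 3 gave 0 and leaving out 1 library 0 to 3. For scBAT minus iBAT ratios (1 call), omission of iWAT 1 and 3 gave 2 and leaving out 1 library 0 to 1. Where limma gave 0 ratios, 1 or 2 genes had an unadjusted p under 0.05. The cause was not tested.

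Deviations of same-numbered libraries of different depots were at most weakly correlated, with 5 of 18 correlations above 0.1 (-0.18 to 0.23). Depots of the same animal could also deviate separately, so these values cannot show whether the numbers pair samples. A replicate block gave 2 calls for scBAT minus iBAT and 2 for iWAT minus eWAT.

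Directions that turned round were all of differences not called as reported. Without iWAT 1 and 3, iWAT minus eWAT became 0.26 for Cd163, 0.39 for Clec10a and 0.11 for Mrc1, and relative to Csf1r 0.11 for C1qa, 0.20 for C1qb, 0.13 for C1qc, 0.55 for Cd163, 0.67 for Clec10a and 0.40 for Mrc1. Brown minus white relative to Csf1r became -0.025 for Mrc1. With Cd68 in place of Csf1r, Clec10a became 0.091 in brown minus white, and C1qb 0.043 and Itgam 0.079 in scBAT minus iBAT. Leaving out 1 library gave -1.23 to 0.057 for Cd163 in scBAT minus iWAT and -0.49 to 0.055 for Clec10a in iWAT minus eWAT. Relative to Csf1r it gave -0.36 to 0.22 for Clec10a in iWAT minus eWAT, and in scBAT minus iBAT -0.055 to 0.053 for C1qa and -0.19 to 0.037 for Itgam.

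Depth limits Marco, whose 0 counts in scBAT allow up to 0.0603 CPM. The 3 libraries per depot limit how well the spread is known.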
